A study of Homo sapiens with 36 samples.

Results

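The genes described here encode 10 subunits of the human complexes that cut pre-mRNA at polyA sites, the cleavage and polyadenylation specificity factor (CPSF) and the cleavage stimulation factor (CstF), and the measurement was how often SCAF4 or SCAF8 PAR-CLIP clusters lay on their RNA. The members were CPSF1, WDR33, CPSF4, FIP1L1, CPSF2, CPSF3, SYMPK, CSTF1, CSTF2 and CSTF3, chosen by function among 20020 protein-coding genes of GENCODE 44 on GRCh38. A cluster was counted for a gene when its midpoint lay on the strand of the gene and within its body, and 294 of the 278185 clusters in all lists met this rule. Of these, 221 were in SCAF4 or SCAF8 IP lists, 12 in control IP lists and 61 in input lists.

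The study asked where on RNA SCAF4 and SCAF8, a pair of related proteins that bind the RNA polymerase II tail and RNA, contact transcripts. PAR-CLIP crosslinks proteins to RNA that carries 4-thiouridine (4SU), recovers the protein and sequences the attached RNA, and a cluster is a stretch of overlapping reads with the T-to-C changes that such crosslinks leave. There were 3 derivatives of HEK293, a human embryonic kidney line: a FLAG-SCAF4 line and a FLAG-SCAF8 line, each given doxycycline to induce the tagged protein (100 ng/mL per the labels, while the study's methods state a higher dose), and the parental Flp-In T-REx line without a tagged protein. The labels name doxycycline for the tagged lines alone, and the study's methods name it for the parental line too. All cells received 100 µM 4SU overnight, a 500 µM pulse for 2 h and 365 nm light at 2000 J/m2, and FLAG IP and input of the same extracts were sequenced from soluble and chromatin fractions, which each list combines. Each line gave 3 IP lists and 3 input lists, and the IP of the parental line is called the control IP. The study's methods call the replicates biological, but the labels name no separate cultures, and p-values measure only the spread between these lists. No expression values are among the data used, so the identity of the line and the tagged protein were not checked against marker genes.

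The SCAF4 IP lists held 18991, 54404 and 33962 clusters and the SCAF8 IP lists 25189, 18287 and 41502. The control IP lists were smaller, with 9638, 2314 and 1621 clusters, and the 9 inputs held 4567 to 12493. List size moved with the group, read depth is unknown, and the part of list size in each difference was not tested. A number of clusters per gene is therefore given with its rate per 10000 clusters of the same list.

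In pre-mRNA 3′ end processing, CPSF reads the polyA signal and cuts the RNA, and CstF binds the sequence downstream of the cut. CPSF4 and WDR33 contact the signal itself, CPSF1 is the large scaffold that holds them, and FIP1L1 binds U-rich RNA and helps to recruit the polyA polymerase. CPSF3 is the endonuclease, CPSF2 is its inactive relative and SYMPK is the scaffold that joins them. CSTF2 binds the RNA downstream of the cut, while CSTF3 bridges it to CSTF1. CSTF3 is also known for a short transcript made by polyadenylation within an early intron of its own gene.

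Merging overlapping clusters of all 18 lists gave 117 sites in the 10 genes, and 5 of them had clusters in at least 4 of the 6 SCAF IP lists and in none of the inputs or control IP lists. Their sequences are shown because they are the recurrent sites without background, which here means no cluster in the inputs or control IP lists. Those lists are all shorter than the SCAF IP lists, so a lack of clusters there does not show that a site has no background. They are cut to at most 100 nt around the site's midpoint and to coding or intron sequence of the canonical transcript. For WDR33 intron 6 and CPSF4 intron 1, all 100 nt are untranslated exon in other protein-coding isoforms, and the middle 30 nt are shown. The WDR33 intron 1 stretch is chr2:127810957-127811011 on the minus strand (SCAF4 IP 2 and 3, SCAF8 IP 2 and 3). The WDR33 intron 6 stretch is chr2:127764298-127764327 on the minus strand (SCAF4 IP 1, 2 and 3, SCAF8 IP 3). The CPSF4 intron 1 stretch is chr7:99439506-99439535 on the plus strand (SCAF4 IP 1, 2 and 3, SCAF8 IP 3). The FIP1L1 stretch, chr4:53383751-53383850 on the plus strand, runs from intron 4 over the acceptor of exon 5 (SCAF4 IP 1 and 3, SCAF8 IP 1 and 3). The CPSF2 stretch, chr14:92130985-92131061 on the plus strand, starts at the start codon in exon 3 (SCAF4 IP 2 and 3, SCAF8 IP 2 and 3). All coordinates are GRCh38. Capitals mark 3 groups of short motifs searched on the transcribed strand only, with overlapping matches joined: the first group holds the letters CGG and CGA, the second group, called the CAG group here, holds the string CCAGC, the string CCAGG, the string GCAGC and the string GCAGG, and the third holds CTCC and CACC.
WDR33 intron 1: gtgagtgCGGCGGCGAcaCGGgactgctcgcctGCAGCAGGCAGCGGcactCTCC
WDR33 intron 6: ctggatgtggcaaacattaaCGGagtaatg
CPSF4 intron 1: cccatttcCACCgtctggggaCTCCtttta
FIP1L1 exon 5: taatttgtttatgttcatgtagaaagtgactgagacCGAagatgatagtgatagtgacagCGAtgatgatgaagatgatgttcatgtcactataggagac
CPSF2 exon 3: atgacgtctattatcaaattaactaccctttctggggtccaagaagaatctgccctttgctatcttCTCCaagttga

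The WDR33 intron 1 stretch opens with the 5′ splice site of intron 1 and holds 5 CGG or CGA matches, 3 of the CAG group and 1 CTCC. The other stretches hold 1 or 2 matches each. Over the 108 sites with SCAF IP clusters, CGG or CGA lay within 100 nt centred on the midpoint in 70.4%, against 64.2% of the 65580 such sites in all protein-coding genes. The corresponding shares were 38.9% and 43.0% for the CAG group, and 47.2% and 47.9% for CTCC or CACC. Among the 49 member sites found in at least 2 SCAF IP lists, the shares were 81.6%, 49.0% and 55.1%, against 67.0%, 43.4% and 48.7% for all genes. These are descriptions of short, frequent strings, and a match is not evidence of a contact at that base.

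As a group, the 10 genes took 6.32 to 14.2 clusters per 10000 in the SCAF IP lists (mean 10.5 ± 3.20, SD, n = 6), against 6.26 to 13.5 in the inputs of the same lines (8.74 ± 2.67, SD, n = 6) and 4.32 to 10.4 in the control IP (6.96 ± 3.10, SD, n = 3). These ranges overlapped. All 10 genes had a cluster in at least 3 SCAF IP lists, and 7 of 10 (WDR33, CPSF4, FIP1L1, CPSF3, SYMPK, CSTF1 and CSTF2) had one in all 6. Of the 7672 genes with clusters in at least 3 of 18 lists, which include all the members, 47.7% did so. The median rate over the 6 SCAF IP lists was 0.82 per 10000 for the members and 0.65 for the genes tested.

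**Figure D1:**
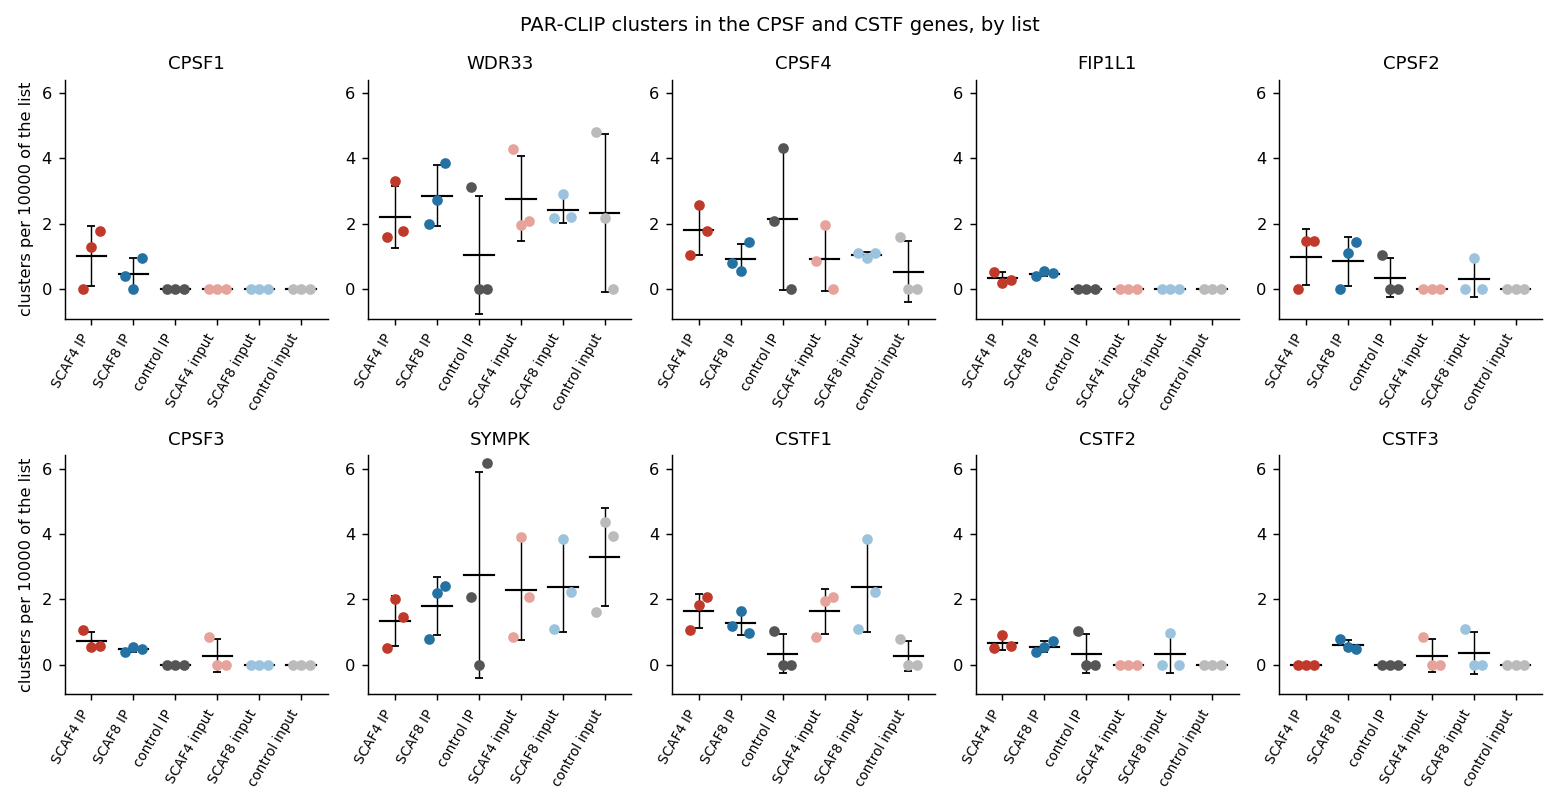
Clusters per 10000 of the list (y axis) for each of the 10 genes in the 6 groups (x axis); each point is 1 list, the bar is the mean and the error bar the SD over 3 lists. CPSF1 and FIP1L1 have points above 0 in the SCAF4 and SCAF8 IP alone, CSTF3 is at 0 in the SCAF4 IP, and in WDR33, SYMPK and CSTF1 the inputs of the SCAF4 and SCAF8 lines overlap their IP.

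Among the genes for polyA signal recognition, WDR33 (chr2:127701027-127811187, minus strand) held most clusters. The SCAF4 IP lists had 3, 18 and 6 clusters there and the SCAF8 IP lists 5, 5 and 16, a mean of 2.54 ± 0.92 per 10000 (SD, n = 6). This mean was at the percentile 90.9 of the 9705 genes with a cluster in any SCAF IP list. Divided by length it ranked lower, at the percentile 67.5 per kb of exon and 62.3 per 10 kb of gene body. The control IP lists had 3, 0 and 0 clusters, the SCAF4 inputs 5, 1 and 1, the SCAF8 inputs 2, 3 and 2, and the inputs of the parental line 6, 1 and 0. The rate in the inputs of the SCAF4 and SCAF8 lines, 2.60 ± 0.88, overlapped that of the IP.

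CPSF4 (chr7:99438922-99457373, plus strand) had 2, 14 and 6 clusters in the SCAF4 IP and 2, 1 and 6 in the SCAF8 IP, or 1.36 ± 0.74 per 10000. The control IP had 2, 1 and 0, and each of the 9 inputs had 0, 1 or 2. The groups overlapped.

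CPSF1 (chr8:144393229-144409335, minus strand) showed another pattern. It had 0, 7 and 6 clusters in the SCAF4 IP, 1, 0 and 4 in the SCAF8 IP, and 0 in every input and control IP list. In the inputs of the same lines, 0 of 50137 clusters allow up to 0.598 per 10000 (3 clusters over the group), and its pooled IP rate was 0.936. The IP rate is given without its own error, so no fold is given. CPSF1 was absent from SCAF4 IP 1 and SCAF8 IP 2, which are among the shortest SCAF IP lists.

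FIP1L1 (chr4:53377569-53464382, plus strand) had 1, 1 and 1 clusters in the SCAF4 IP and 1, 1 and 2 in the SCAF8 IP, with none in inputs and control IP. It was present in all 6 SCAF IP lists, but its pooled rate of 0.364 lay under what a count of 0 in the inputs allows, so no fold is given. Of its 7 clusters, 6 also lay in the body of an unnamed protein-coding gene, ENSG00000282278, annotated over the same region, and cannot be told apart from it. In the control IP, 0 of 13573 clusters allow up to 2.21 per 10000, which is above the SCAF IP rate of every member except WDR33. At this list size a lack of clusters in the control IP is not informative for the other 9 genes.

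Among the genes of the cleavage module, CPSF3 (chr2:9423651-9473101, plus strand), the endonuclease, had 2, 3 and 2 clusters in the SCAF4 IP and 1, 1 and 2 in the SCAF8 IP. SCAF4 input 1 had 1 cluster, and the other inputs and the control IP had none. Its relative CPSF2 (chr14:92121969-92172145, plus strand) had 0, 8 and 5 in the SCAF4 IP and 0, 2 and 6 in the SCAF8 IP. SCAF8 input 2 and control IP 1 had 1 CPSF2 cluster each. The background lists are shorter, so such counts do not show a low background. Per 10000, CPSF2 had 1.04 in control IP 1 and 0.97 in SCAF8 input 2, against a mean of 0.91 ± 0.72 (SD) in the SCAF IP lists. CPSF3 had 0.85 in SCAF4 input 1, against 0.60 ± 0.23. The other background lists had no cluster in either gene. CPSF2 had no cluster in replicate 1 of either IP.

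SYMPK (chr19:45815410-45863194, minus strand) had 1, 11 and 5 clusters in the SCAF4 IP and 2, 4 and 10 in the SCAF8 IP. The inputs of the SCAF4 line had 1, 2 and 1, those of the SCAF8 line 1, 4 and 2, those of the parental line 2, 2 and 2, and the control IP 2, 0 and 1. The scaffold gene therefore had clusters in all 9 inputs, the highest number of input lists among the members.

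In CstF, CSTF1 (chr20:56392371-56406362, plus strand) had 2, 10 and 7 clusters in the SCAF4 IP and 3, 3 and 4 in the SCAF8 IP. The inputs of the SCAF4 line had 1, 1 and 1 and those of the SCAF8 line 1, 4 and 2. Those of the parental line had 1, 0 and 0, as had the control IP. Per 10000, CSTF1 had 1.46 ± 0.45 (SD, n = 6) in the SCAF IP lists and 2.01 ± 1.06 in the inputs of the same lines, which overlapped. The control IP had a mean of 0.346. CSTF2 (chrX:100820391-100841520, plus strand) had 1, 5 and 2 in the SCAF4 IP and 1, 1 and 3 in the SCAF8 IP. It also had 1 cluster in SCAF8 input 2 and 1 in control IP 1, or 0.97 and 1.04 per 10000. Its mean in the SCAF IP lists was 0.62 ± 0.18 (SD, n = 6). Both CSTF1 and CSTF2 were present in all 6 SCAF IP lists.

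CSTF3 (chr11:33077188-33162371, minus strand) was the member in which the tagged proteins differed in presence. It had 0 clusters in the 3 SCAF4 IP lists and 2, 1 and 2 in the SCAF8 IP lists. The lists did not overlap, as in 5.66% of genes tested with the SCAF8 IP higher. Over the group, 0 of 107357 clusters allow up to 0.279 per 10000 in the SCAF4 IP, and 5 of 84978 are 0.588 in the SCAF8 IP. The rate from 5 clusters is given without its own counting error, so no fold is given. SCAF4 input 1 and SCAF8 input 1 each had 1 cluster in the gene. The limit for the count of 0 covers counting error only.

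Levels were compared between genes per length. Clusters over the whole gene, intronic ones included, were first divided by the exon length of the canonical transcript. CPSF4 had the highest rate, 0.748 ± 0.405 per 10000 clusters and per kb of exon (SD, n = 6). It was followed by SYMPK (0.385 ± 0.190), CSTF1 (0.362 ± 0.112), WDR33 (0.268 ± 0.0964) and CPSF3 (0.267 ± 0.102). CSTF2 (0.240 ± 0.0706), CPSF1 (0.164 ± 0.161), FIP1L1 (0.119 ± 0.0421), CSTF3 (0.108 ± 0.124) and CPSF2 (0.0703 ± 0.0555) came after them. Each pair of neighbours in this order differed by less than the larger of their SDs. Per 10 kb of gene body the order was another, with CSTF1 (1.04 ± 0.323), CPSF4 (0.739 ± 0.400), CPSF1 (0.457 ± 0.449), SYMPK (0.328 ± 0.162) and CSTF2 (0.292 ± 0.0859) ahead of WDR33 (0.230 ± 0.0831), CPSF2 (0.182 ± 0.144), CPSF3 (0.122 ± 0.0466), FIP1L1 (0.0467 ± 0.0165) and CSTF3 (0.0357 ± 0.0409). The place of a gene in these orders thus depends on which length is used.

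Rates were then compared in a fit over all 7672 genes tested (limma, log2 of clusters per 10000 + 1, Benjamini-Hochberg adjustment over all genes), which understates the change of genes with few clusters. Against the inputs of the same lines, 3 of 10 members were called, while 24.3% of all genes tested were called higher and 2.29% lower. Without scaling to list size, 8 of 10 members were called, with 5645 genes higher and 1 lower in all, so the calls depend on the scaling. CPSF3, the called member that also had an input cluster, was higher by 0.52 ± 0.16 (SE; adjusted p = 0.0229). With 1 list outside the SCAF IP, CPSF3 reached the filter of 3 lists only through the SCAF IP lists. Its pooled SCAF IP rate of 0.572 lay under the 0.598 that even a count of 0 in the inputs allows, so nothing is read from this call. CPSF1 and FIP1L1 passed the filter on low values only through SCAF IP lists and so had to differ: their values were 0.69 ± 0.20 (adjusted p = 0.0152) and 0.48 ± 0.09 (adjusted p = 0.00144), and nothing is read from their calls. CPSF2 (0.67 ± 0.29, adjusted p = 0.0836) and CSTF2 (0.52 ± 0.21, adjusted p = 0.0715) did not pass. The remaining differences were 0.26 for CPSF4, 0.01 for CSTF3, -0.03 for WDR33, -0.24 for CSTF1 and -0.34 for SYMPK, with adjusted p of 0.592 to 0.966. The median was 0.37 for the members and 0.26 for all genes tested.

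The lists of both groups did not overlap for FIP1L1, as in 5.02% of genes tested with the IP higher, but it was in the fit only through the SCAF IP lists and its rate lay under the limit of the inputs, so nothing is read from this. No member was lower without overlap (2.66% of genes). Leaving out lists moved these calls over the threshold. CPSF3 was not called without SCAF4 input 2 (0.45, adjusted p = 0.0690), SCAF4 input 3 (0.45, 0.0669), all lists of replicate 2 (0.47, 0.185) or all lists of replicate 3 (0.47, 0.255). CPSF1 was not called without all lists of replicate 2 (0.73, adjusted p = 0.0639), nor FIP1L1 without those of replicate 3 (0.49, 0.0640). CPSF2 was called without SCAF4 IP 1 (0.88, adjusted p = 0.0254), SCAF8 IP 1 (0.86, 0.0358) or SCAF8 input 2 (0.83, 0.0398). It was also called without all lists of replicate 1 (1.00, 0.00731), and CSTF2 was called without SCAF8 input 2 (0.69, 0.0161). CPSF2 and CSTF2 too reached the filter of 3 lists only through SCAF IP lists. Their only input cluster was in SCAF8 input 2, so without that list they had to differ. Nothing is read from these calls.

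**Figure D2:**
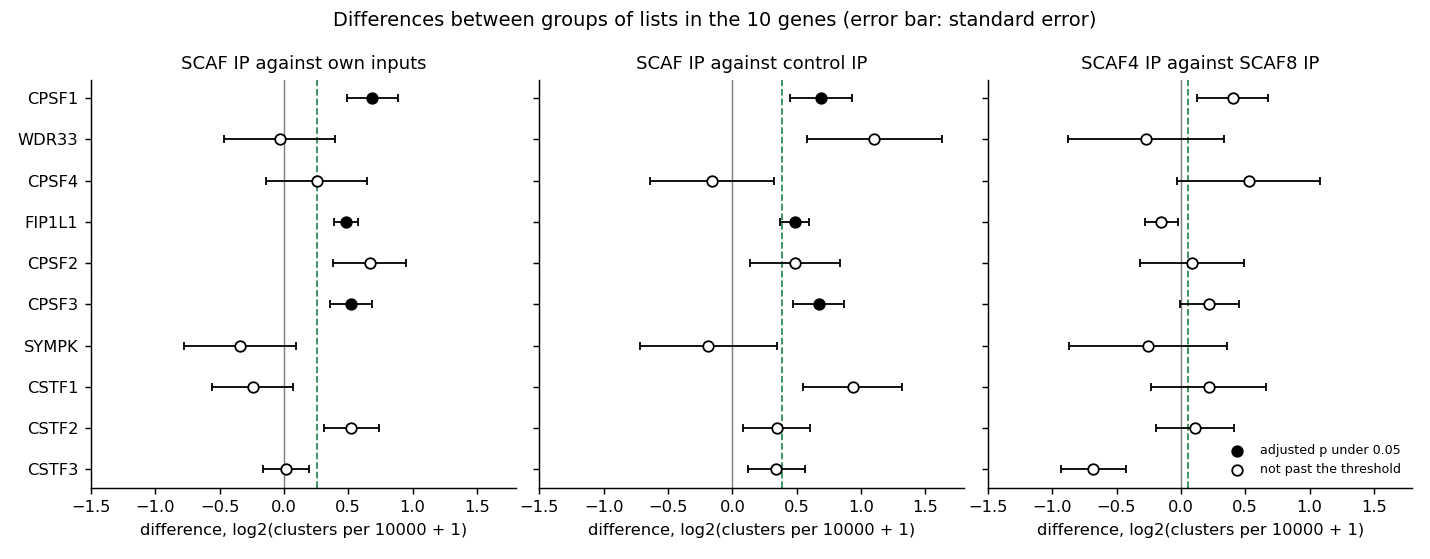
Difference in log2(clusters per 10000 + 1) between groups of lists (x axis) for each of the 10 genes (y axis) in 3 comparisons, with the standard error as error bar; filled points passed an adjusted p of 0.05 and the dashed line is the median of all genes tested. CPSF1, FIP1L1 and CPSF3 are filled in the comparisons with inputs and control IP, and no point is filled between SCAF4 and SCAF8.

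The comparison with the control IP uses the same SCAF IP lists, so it is not a separate line of evidence. It called 3 of 10 members, where 19.7% of all genes tested were called higher and 2.57% lower (1508 and 197 genes). Without scaling to list size it called 9 of 10 members, with 5574 genes higher and 0 lower. The 3 members called with scaling had 0 clusters in every control IP list, which at this list size is not informative. They reached the filter of 3 lists only through the SCAF IP lists, so these calls are given as values and nothing is read from them. CPSF3 differed by 0.67 ± 0.20 (adjusted p = 0.0234), CPSF1 by 0.69 ± 0.24 (adjusted p = 0.0458) and FIP1L1 by 0.48 ± 0.11 (adjusted p = 0.00972). WDR33 (1.10 ± 0.52, adjusted p = 0.116) and CSTF1 (0.93 ± 0.39, adjusted p = 0.0782) did not pass. The values were 0.49 for CPSF2, 0.34 for CSTF2, 0.34 for CSTF3, -0.16 for CPSF4 and -0.19 for SYMPK, and the median was 0.48 for the members and 0.38 for all genes. The lists of FIP1L1 and CPSF3 did not overlap those of the control IP, as in 14.4% of genes tested with the SCAF IP higher, again against a count of 0, and no member was lower in that way (2.84% of genes).

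Leaving out control IP 2 or control IP 3 removed calls without moving the differences of the called members, since their remaining control lists are also at 0. Without control IP 2 or control IP 3, 1 and 13 genes were called in all, and none of them was a member: the adjusted p became 0.0626 and 0.0563 for FIP1L1, 0.0912 and 0.0856 for CPSF3, and 0.126 and 0.121 for CPSF1, at unchanged differences of 0.48, 0.67 and 0.69. The cause was not tested. CPSF1 was also lost without control IP 1 (0.0806), SCAF4 IP 2 (0.0717), SCAF4 IP 3 (0.0698), SCAF8 IP 1 (0.0603) or SCAF8 IP 3 (0.0839). Without control IP 1, the longest control list, 2097 genes were called in all. FIP1L1 and CPSF3 stayed called there, and WDR33 (adjusted p = 0.0216), CSTF1 (0.0292) and CSTF2 (0.0452) were called as well. The remaining control lists held 0 clusters in each of these members, so nothing is read from these calls.

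Between SCAF4 IP and SCAF8 IP no member was called, where 1.84% of all genes tested were higher in SCAF4 and 0.443% lower (limma; at an unadjusted p under 0.05, 1 member, CSTF3). CSTF3 differed by -0.68 ± 0.26 (adjusted p = 0.263) and its lists did not overlap, as in 5.66% of genes tested in that direction. It reached the filter of 3 lists only through the SCAF8 IP lists, so nothing is read from these values. CPSF3 was higher in the SCAF4 lists without overlap, as were 9.89% of genes, but differed by 0.22 ± 0.23 (adjusted p = 0.996). CPSF4 (0.53 ± 0.56) and CPSF1 (0.40 ± 0.28) had the next largest differences, with adjusted p of 0.996 and 0.790. A p above the threshold does not show that SCAF4 and SCAF8 gave equal rates.

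Related gene lists are given for comparison by counts. Of 13 other 3′ end processing genes, among them NUDT21, PCF11 and PAPOLA, 12 were tested, and 0 were called higher against the inputs (1 at an unadjusted p under 0.05), 2 against the control IP and 0 between SCAF4 and SCAF8 (0 at an unadjusted p under 0.05), with median differences of -0.21, 0.24 and -0.05. Of 14 Integrator genes, whose complex cuts other nascent transcripts, 12 were tested, and 4, 3 and 1 were called higher, with medians of 0.29, 0.29 and 0.24.

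Most of the 117 sites had SCAF IP clusters, 108 in all. Of these, 39 were shared by SCAF4 and SCAF8, 42 were seen with SCAF4 alone and 27 with SCAF8 alone. Input and control IP clusters were absent from 82 of them, which at those list sizes does not show a lack of background. In 59 of the 108 there was a cluster in only 1 SCAF IP list, and in 49 in at least 2. WDR33 had 36 sites, CPSF4 16, SYMPK 16, CPSF2 11, CPSF1 9, CSTF1 9, CPSF3 6, CSTF3 6, CSTF2 5 and FIP1L1 3.

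The 7 sites present in all 6 SCAF IP lists each also had an input cluster. They were WDR33 exon 6 (chr2:127764739-127764979, 1 input) and exon 7 (chr2:127763007-127763180, 3 inputs), CPSF4 exon 8 in the 3′ UTR (chr7:99456341-99456657, 5 inputs), CSTF1 exon 5 (chr20:56398984-56399368, 3 inputs) and its 3′ UTR (chr20:56403402-56404064, 4 inputs), CSTF2 exon 3 (chrX:100822250-100822426, 1 input) and SYMPK intron 1 (chr19:45862435-45862607, all 9 inputs). All but CSTF1 exon 5 also had a cluster in control IP 1. The CPSF3 site next in order lay over the acceptor of its last exon (chr2:9472862-9473092), in 5 SCAF IP lists and 1 input.

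**Figure D3:**
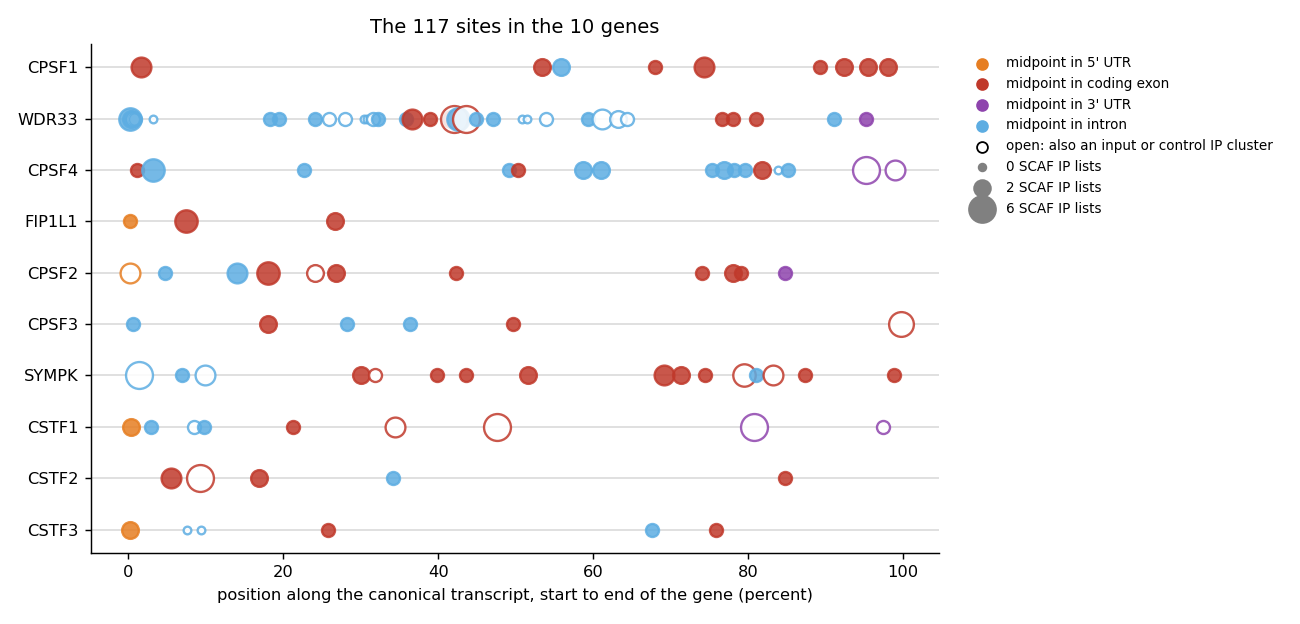
The 117 sites by position along the canonical transcript (x axis, percent from start to end) for each of the 10 genes (y axis); colour gives the feature at the midpoint, size the number of SCAF IP lists, and open symbols have an input or control IP cluster. The 7 largest symbols are open, and CPSF1 sites are filled and mostly in coding exons.

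By midpoint, 55 sites lay in introns, 52 in coding exons, 4 in 5′ UTRs and 6 in 3′ UTRs. Many crossed exon borders: 46 sites covered exon and intron, 34 covered a 5′ splice site, 24 a 3′ splice site and 12 both. Of the 32 sites in at least 2 SCAF IP lists and with no input or control IP cluster, 23 covered exon and intron and 18 covered a 5′ splice site. In CPSF1, 17 of 18 SCAF IP clusters had the midpoint in a coding exon. In WDR33, 29 of 53 were intronic, and in CPSF4 17 of 31.

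The share of clusters with an exonic midpoint, by the isoform with most exon sequence, was 69.6% ± 6.44 over the SCAF IP lists (SD, n = 6; lowest 61.8%, highest 78.9%), or 148 of 221 clusters (67.0%, exact 95% interval 60.3 to 73.1%). Over all protein-coding genes it was 62.9% ± 4.07, and the members were above it in 6 of 6 lists. In the inputs it was 25 of 61 clusters (41.0%, exact 95% interval 28.6 to 54.3%), and the members were below all genes in 9 of 9 lists. Of the 36 intronic input clusters, 17 were in WDR33 and 14 in SYMPK, where an intron 1 site had a cluster in all 9 inputs. A site counts in each list that holds it, so the clusters are not independent and both intervals can be too narrow. Exons of canonical transcripts make up 9.60% of the members' gene length and 5.28% of that of all protein-coding genes. In the control IP, 9 of 12 clusters were exonic.

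Clusters covering exon and intron together were 90 of 221 in the SCAF IP (40.7%; lists 33.3 to 58.3%), where all protein-coding genes had 26.9 to 37.0%. In the inputs they were 7 of 61 (11.5%), where all genes had 11.7 to 17.3%, and in the control IP 3 of 12. The SCAF IP lists and the inputs did not overlap in this share, for the members (0 to 28.6% per input) or for all genes.

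**Figure D4:**
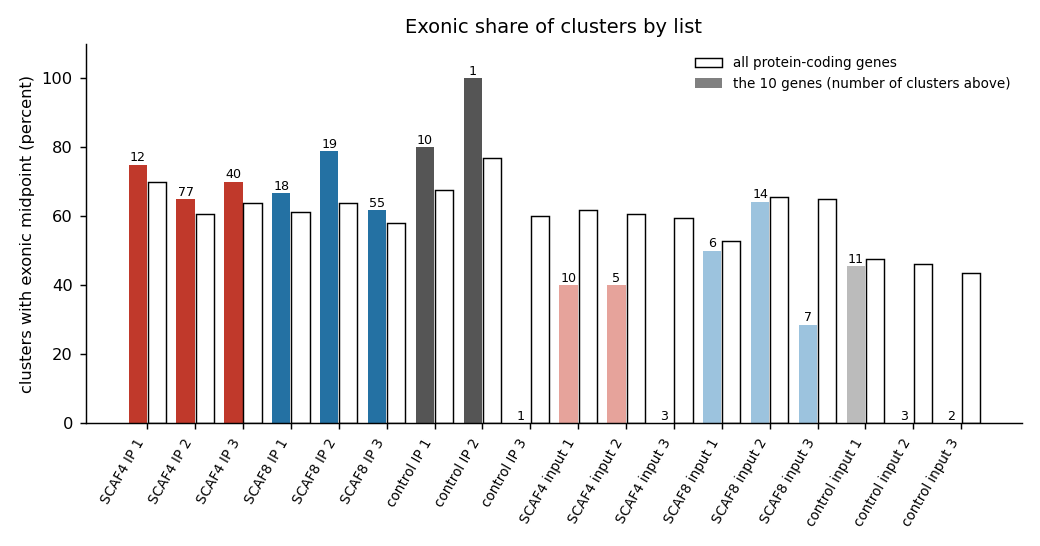
Share of clusters whose midpoint is exonic (y axis, percent) in each of the 18 lists (x axis), for the 10 genes (filled bars, with the number of clusters above) and for all protein-coding genes (open bars). The filled bar is the taller of the pair in all 6 SCAF IP lists and the shorter in all 9 inputs, where the members had 2 to 14 clusters.

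WDR33 has a short protein-coding isoform, WDR33-204, which has 6 exons and ends in intron 7 of the full-length transcript. Its last exon (chr2:127762533-127764979, 2447 nt) is 2.22% of the gene body and held 16 of 53 SCAF IP clusters (30.2%). In the SCAF4 IP lists 3, 3 and 3 clusters lay there and in the SCAF8 IP lists 2, 2 and 3, so it was occupied in 6 of 6 lists. Input clusters lay there in 4 of 21 cases (19.0%), in replicate 1 of each line, and control IP clusters in 2 of 3, both in control IP 1.

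Within this exon were 3 sites. The exon 6 site and the exon 7 site were those present in all 6 SCAF IP lists. Between them lay the intron 6 site without background (chr2:127764204-127764421), seen in SCAF4 IP 1, 2 and 3 and SCAF8 IP 3, whose sequence is printed with the recurrent sites. The midpoint of the exon 7 site lay 560 nt before the annotated end of WDR33-204, and no AATAAA or ATTAAA was found on the transcribed strand in the last 50 nt of that transcript. A further short isoform, WDR33-202, has an AATAAA 19 nt before its end and no site within 1000 nt upstream of it.

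**Figure D5:**
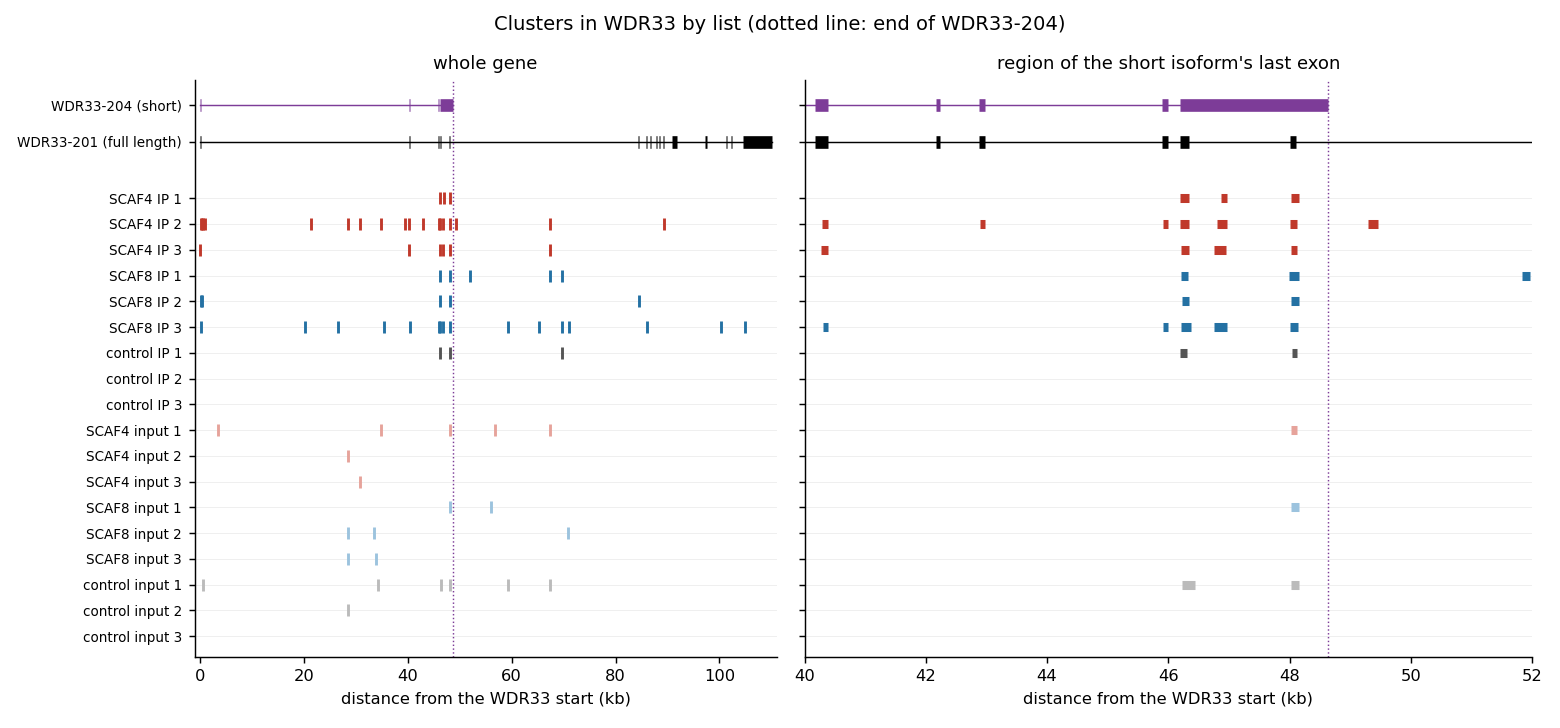
Clusters in WDR33 for each of the 18 lists (y axis) by distance from the start of the gene (x axis, kb), over the whole gene (ticks at midpoints) and, to scale, around the last exon of WDR33-204; boxes above are exons and the dotted line is the end of WDR33-204. All 6 SCAF IP lists have 2 or 3 clusters in that exon, and clusters of control IP 1 and of replicate 1 of the inputs lie there as well.

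CSTF3 was examined in the same way because of its short transcripts. Of its 4 sites with SCAF IP clusters, 1 lay near their ends: exon 3 (chr11:33141568-33141782), seen only in SCAF8 IP 1, 67 nt before the end of CSTF3-204 and in the last exons of CSTF3-202 and CSTF3-203. None of these 3 transcripts has AATAAA or ATTAAA in its last 50 nt. The other sites were the 5′ UTR in exon 1 (SCAF8 IP 2 and 3), intron 3 (SCAF8 IP 1) and exon 9 (SCAF8 IP 3). No CSTF3 site was thus seen in more than 2 lists.

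Over 9 of the genes, 44 annotated transcripts end more than 1000 nt before the end of the canonical transcript, and 16 of them had a site within 1000 nt upstream. In every case it had a SCAF IP cluster, as had 108 of all 117 sites. The share for other genes was not counted, so 16 of 44 does not show a preference for such ends. The 16 were 3 of 10 protein-coding transcripts (WDR33-204, CSTF3-202 and CSTF3-203), 7 of 21 with a retained intron and 6 of 13 of other types. Annotated ends of incomplete transcripts need not be polyA sites: of 42 distinct internal ends, 6 had AATAAA or ATTAAA in the last 50 nt, against 14 of 28 ends within 1000 nt of the canonical end.

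The sites near such ends, beside those of WDR33 and CSTF3, are given by the distance of the midpoint from the nearest end. CPSF4 had 6: intron 3 (598 nt), 4 in intron 6 (435, 150, 655 and 404 nt) and exon 7 (3 nt). CPSF1 had 3: exon 7 (931 nt), intron 8 (530 nt) and exon 30 (182 nt). CSTF1 had exon 2 (380 nt) and the 3′ UTR site (729 nt). CPSF2 exon 6 (31 nt), CPSF3 exon 11 (114 nt) and the FIP1L1 exon 5 site (381 nt) had 1 each. Most of these 14 sites were in 1 or 2 SCAF IP lists: the exceptions were the CSTF1 3′ UTR site, with 6 lists and input clusters, and the FIP1L1 exon 5 site, with 4 lists and no background.

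In a filter modelled on that of the study's methods, a region was kept if clusters of at least 2 replicates overlapped there, if no more than 1 input list and no control IP list overlapped it, and if the gene with 2000 nt on each side had under 1 merged input region per 10 kb. The methods give a limit on input clusters per length but not how they were counted, so the merging and the flanks are choices made here. This left 12 SCAF4 consensus clusters in 6 members, 7 SCAF8 consensus clusters in 6 members and, with at least 2 of 6 lists, 24 pooled ones in 7 members. The pooled set had 7 in CPSF1, 5 in CPSF2, 5 in SYMPK, 2 each in FIP1L1, CPSF3 and CSTF2, and 1 in CSTF3. WDR33, CPSF4 and CSTF1 had none, although 9, 7 and 4 regions had clusters in at least 2 lists, because their input density of 1.31, 1.34 and 3.33 regions per 10 kb was over the limit. SYMPK, at 0.966, was just under it, and its place depends on the counting. Over the gene body alone it had 1.05 merged regions or 3.56 single input clusters per 10 kb, both over the limit. With either of these counts, which were chosen after seeing the data, SYMPK had no consensus clusters and 10 SCAF4, 6 SCAF8 and 19 pooled ones were left.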

How the data were processed

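PAR-CLIP clusters were taken from 18 lists, 1 per replicate of IP and input of each line. Per the labels and the study's methods, the authors trimmed reads, aligned them, combined the soluble and chromatin libraries and called clusters with PARalyzer. The submitters' processing notes name bcl2fastq 1.8, Trim Galore, cutadapt, Bowtie2 2.2.9, Picard and GRCh38. Each deposited list gives chromosome, start, end, strand and an unnamed score between 0.50 and 1 for every cluster, before filtering against input or control IP, and this score served only as a rank inside its list. Replicate 1 was sequenced with longer reads. All 278185 of 278185 clusters lay within GRCh38 chromosomes.

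Clusters were assigned to GENCODE 44 gene bodies by midpoint and strand, and scaled to 10000 clusters of the list. Genes with clusters in at least 3 of 18 lists were tested with limma 3.58.1 (R 4.3.3, trend, 6 groups in 1 fit) on log2 of the rate + 1, at an adjusted p of 0.05. This was tested on simulated data. Counts and sites were computed in Python 3.11.15 with pandas 2.3.3 and numpy 2.4.6, intervals with scipy 1.17.1, sequences with pysam 0.24.0, and figures with matplotlib 3.10.9. Sites are clusters of all lists merged at 1 nt overlap. Exonic shares used the isoform with most exon sequence, and features, ends and splice sites the canonical isoform. Sequences were read from the GRCh38 genome.

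All 10 members are named; sites are named if found in at least 4 SCAF IP lists and no background, if in all 6, or if within 1000 nt upstream of an annotated internal end. The members and lists were chosen with earlier results of these data known. Each input came from the extract of the IP with its number. Over genes tested in the check, same-numbered IP and input lists correlated at 0.0224 to 0.374 (deviations from group means, 6 of 9 over 0.1) and others at -0.274 to 0.156. Input density was counted as merged input regions over a gene and 2000 nt on each side. Alternatives covered the pseudocount, filters, scaling, score, gene assignment, replicate block and left-out lists, and 2 other counts of input density chosen after seeing the data. Intervals and limits for counts of 0 (3 clusters) cover counting error only, and the intervals treat clusters as independent.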

Additional observations from a re-analysis of the deposited data

How the results depend on the processing

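Over all genes tested with limma, 2043 genes were called against the inputs of the same lines, 1705 against the control IP and 175 between SCAF4 and SCAF8. Without scaling to list size these became 5646, 5574 and 329, and the median difference of all genes moved from 0.26, 0.38 and 0.06 to 1.00, 1.23 and 0.33. With the clusters whose score reached their list's median they became 818, 4 and 90, and with genes in at least 6 lists 987 against inputs and 0 between SCAF4 and SCAF8 (195 at an unadjusted p under 0.05). Leaving out all lists of a replicate number gave 253 to 2806, 0 to 3463 and 0 to 236 (for the counts of 0, 1473 and 1916 genes against the control IP, and 295 and 410 between SCAF4 and SCAF8, at an unadjusted p under 0.05), and leaving out single lists 1502 to 2284, 1 to 2158 and 66 to 296. The replicate block, which pairs lists by number, gave 2289, 1938 and 159 genes and changed no call of a member. Of the alternatives, CPSF1, FIP1L1 and CPSF3 were called against inputs in 21 of 22 (adjusted p 0.000514 to 0.0639), 22 of 24 (1.71e-05 to 0.1) and 20 of 24 (0.000132 to 0.255), and against the control IP in 8 of 19, 16 of 21 and 16 of 21. CSTF3, which was in the fit only through the SCAF8 IP lists, was called between SCAF4 and SCAF8 in 1 of 16, without scaling (adjusted p = 0.0117).

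Without scaling, 8 of 10 members were called against inputs and 9 of 10 against the control IP. Among the members whose difference changed sign there, the values against inputs were 1.43 for WDR33 (adjusted p = 0.0310), 1.01 for SYMPK (not called) and 1.08 for CSTF1 (0.0129), and against the control IP 1.42 for CPSF4 (0.0316) and 1.56 for SYMPK (0.0191). CPSF4 (0.0112) was also called against inputs without scaling, as were CPSF2 (0.0170) and CSTF2 (0.00146), which were in the fit only through SCAF IP lists. With the higher-scoring clusters, they were 0.40 for SYMPK and 0.21 for CSTF1 against inputs, 0.63 for CPSF4, 0.76 for SYMPK and -0.15 for CSTF2 against the control IP, and -0.11 for CPSF3, 0.18 for SYMPK and -0.22 for CSTF1 between SCAF4 and SCAF8. A pseudocount of 0.25 gave 0.0946 for CPSF4 and 0.0938 for SYMPK against the control IP, and a pseudocount of 4 gave -0.0029 for CSTF3 against inputs. When lists were left out, the ranges were -0.17 to 0.23 for WDR33, -0.0366 to 0.44 for CPSF4 and -0.14 to 0.19 for CSTF3 against inputs, -0.93 to 0.37 for CPSF4 and -1.10 to 0.49 for SYMPK against the control IP, and -0.31 to 0.52 for CPSF2 and -0.55 to 0.0223 for SYMPK between SCAF4 and SCAF8.

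Consensus clusters of SCAF4, SCAF8 and the pooled set were 1, 0 and 9 with all 3 lists (3 of 6 for the pooled set) and 5, 0 and 9 with the higher-scoring clusters of each list. With input density counted over the gene body, by merged regions or single clusters (chosen after seeing the data), they were 10, 6 and 19. Without the limit on input density SCAF4 had 19, and leaving out a replicate number gave 2 to 23, 0 to 9 and 7 to 39. The exonic share of the SCAF IP lists rose to 82.3% with exons of any transcript and was 68.4 to 71.4% without a replicate. The lists hold no reads, so depth and limits on reads per cluster were not varied. The cause of these shifts was not tested.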
